A study of Homo sapiens with 20 samples.

Results

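The 10 genes described here are the endoplasmic reticulum (ER) chaperones and unfolded protein response genes HSPA5, HSP90B1, DNAJB9, DNAJC3, SDF2L1, HERPUD1, PDIA4, CALR, ATF6 and ERN1. They were taken by their gene names from a table of 60271 genes, each name matched 1 gene, and all 10 passed the filter on low counts that left 16522 genes to test. The samples were RNA-seq libraries of MDA-MB-468, a human triple-negative breast cancer cell line of epithelial origin with a high level of the epidermal growth factor (EGF) receptor. All cells were starved of serum before treatment. Control cells (CTR) received no EGF, and the other cells were kept with EGF at 50 ng/mL over 12, 24, 48 or 72 h, which induces epithelial-mesenchymal transition (EMT) in this line. Each of the 5 groups had 4 libraries labelled as biological replicates. The cells come from 1 line, and the 4 comparisons against CTR use the same 4 CTR libraries. The sources used here do not say when the CTR cells were harvested, so the effect of EGF cannot be told apart from time in culture.

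Secreted and membrane proteins fold in the ER with the help of chaperones, of which the HSP70 protein BiP is the most general. When unfolded chains exceed the folding capacity, BiP leaves the sensors IRE1, PERK and ATF6. IRE1 then splices the XBP1 mRNA, PERK slows translation and favours ATF4, and ATF6 is cut to release a transcription factor. XBP1 and ATF6 induce chaperones, disulfide isomerases and the machinery that returns misfolded chains to the cytosol for degradation. The mRNA levels given here show neither the splicing of XBP1 nor the cleavage of ATF6.

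Library totals ran from 15611961 to 25856953 counts. A gene's level is given in CPM, its count relative to the library total after scaling by the trimmed mean of M-values (TMM), and differences are log2 fold changes with their standard errors from edgeR's quasi-likelihood test. Adjusted p-values (Benjamini-Hochberg) are over all 16522 genes, and a gene is called higher or lower where this value was under 0.05. The epithelial markers EPCAM, KRT8, KRT18, KRT19, CDH1 and EGFR were expressed in every group and changed with EGF. All 6 were higher at 12 h (median log2 fold change 1.43); 4 were higher and 1 lower at 24 h (1.00), 1 and 2 at 48 h (0.030) and 3 and 2 at 72 h (0.43). KRT18 went from 788 ± 84.4 CPM in CTR to 5136 ± 150.4 CPM at 12 h, 2649.8 ± 327 CPM at 24 h, 835 ± 17.4 CPM at 48 h and 1441 ± 132 CPM at 72 h (SD, n = 4). Of 7 markers of other cell types, PTPRC, CD3E, VWF, COL1A2 and DCN had 0 to 9 counts in any library, whereas PECAM1 and COL1A1 were detected in every group and changed with EGF. PECAM1 had 2.31 ± 0.706 CPM in CTR and 0.374 ± 0.124 CPM, 2.99 ± 0.862 CPM, 4.20 ± 0.734 CPM and 3.08 ± 0.272 CPM at the 4 EGF times in order. COL1A1 had 6.18 ± 1.39 CPM in CTR and then 9.74 ± 0.816 CPM, 10.9 ± 0.888 CPM, 11.5 ± 2.01 CPM and 13.9 ± 0.898 CPM. The part of these markers in the results was not tested. The mitochondrial share of counts was 7.69% to 16.9% over the libraries, and its group means were 10.9% in CTR and 9.41%, 12.4%, 12.5% and 15.04% at 12, 24, 48 and 72 h. Its part in the results was not tested beyond the fit with this share as a covariate, and its values stand beside the genes that moved with it.

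The promoter letters of 5 of the 10 genes hold a complete ER stress response element, and these promoters are shown because the genes that carry the element did not follow 1 time course. The element ERSE is CCAAT, any 9 bases, then CCACG, and ERSE-II is ATTGG, any 1 base, then CCACG. As background, the factor NF-Y binds the CCAAT part and ATF6 the CCACG part. Each line gives the 250 bases before the RefSeq transcription start (GRCh38.p14), read 5′ to 3′ along the gene, with the letters of ERSE or ERSE-II parts in capitals; on the opposite strand CCACG reads CGTGG and CCAAT reads ATTGG. The stretches are chr9:125241344-125241593 (minus strand) for HSPA5, chr12:103930160-103930409 (plus strand) for HSP90B1, chr19:12938359-12938608 (plus strand) for CALR, chr16:56931892-56932141 (plus strand) for HERPUD1 and chr22:21642052-21642301 (plus strand) for SDF2L1.
HSPA5: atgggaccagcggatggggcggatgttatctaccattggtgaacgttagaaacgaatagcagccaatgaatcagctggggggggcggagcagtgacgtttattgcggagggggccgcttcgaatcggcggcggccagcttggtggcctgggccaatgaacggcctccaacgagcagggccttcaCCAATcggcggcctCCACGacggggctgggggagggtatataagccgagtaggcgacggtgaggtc
HSP90B1: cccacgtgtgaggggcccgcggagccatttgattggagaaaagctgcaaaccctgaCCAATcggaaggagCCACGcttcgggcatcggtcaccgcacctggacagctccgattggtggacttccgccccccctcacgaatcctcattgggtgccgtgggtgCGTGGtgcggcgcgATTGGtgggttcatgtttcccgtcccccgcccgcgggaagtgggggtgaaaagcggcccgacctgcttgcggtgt
CALR: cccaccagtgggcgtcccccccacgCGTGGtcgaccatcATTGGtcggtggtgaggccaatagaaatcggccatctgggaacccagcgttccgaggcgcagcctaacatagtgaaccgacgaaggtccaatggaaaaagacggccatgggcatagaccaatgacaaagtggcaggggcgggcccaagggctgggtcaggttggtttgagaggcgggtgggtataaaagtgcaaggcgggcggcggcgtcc
HERPUD1: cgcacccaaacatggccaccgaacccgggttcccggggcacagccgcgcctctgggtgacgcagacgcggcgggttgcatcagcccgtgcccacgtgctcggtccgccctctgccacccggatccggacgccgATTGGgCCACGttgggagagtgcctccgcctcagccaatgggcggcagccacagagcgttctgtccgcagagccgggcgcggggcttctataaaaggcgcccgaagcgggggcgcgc
SDF2L1: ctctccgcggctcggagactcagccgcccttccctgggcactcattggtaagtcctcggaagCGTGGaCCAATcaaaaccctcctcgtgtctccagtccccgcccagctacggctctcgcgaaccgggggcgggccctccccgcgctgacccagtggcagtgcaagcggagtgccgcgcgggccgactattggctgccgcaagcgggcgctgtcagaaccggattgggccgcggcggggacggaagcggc

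In HSPA5 the ERSE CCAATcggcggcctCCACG lay 66 to 48 bases before the start. HSP90B1 held 2 copies, at 194 to 176 bases before the start and, on the opposite strand, at 89 to 71 bases. The CALR copy was on the opposite strand at 225 to 207 bases before the start. HERPUD1 carried the ERSE-II ATTGGgCCACG at 117 to 107 bases, and SDF2L1 carried ATTGGtCCACG on the opposite strand at 188 to 178 bases before the start. All 10 genes matched the RefSeq promoter table, with 11 windows in all since PDIA4 has 2 annotated starts. Searched on both strands of 300-base windows, 250 before and 50 after the start, ERSE was in 27 of 35116 windows (0.0769%) and ERSE-II in 19 (0.0541%). The parts alone are common. CCAAT, which both elements contain on 1 of the strands, was in 34.6% of windows and in those of 9 of the 10 genes, and CCACG was in 38.1% of windows and in those of 8. The core of the unfolded protein response element (UPRE), TGACG followed directly by TGG, was in 0.729% of windows and in none of the 11. The genes and the elements were both taken as known parts of this response, so the shares of all windows are no test of enrichment. A match of letters is a description of the window and says nothing of whether a factor was bound.

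**Figure D1:**
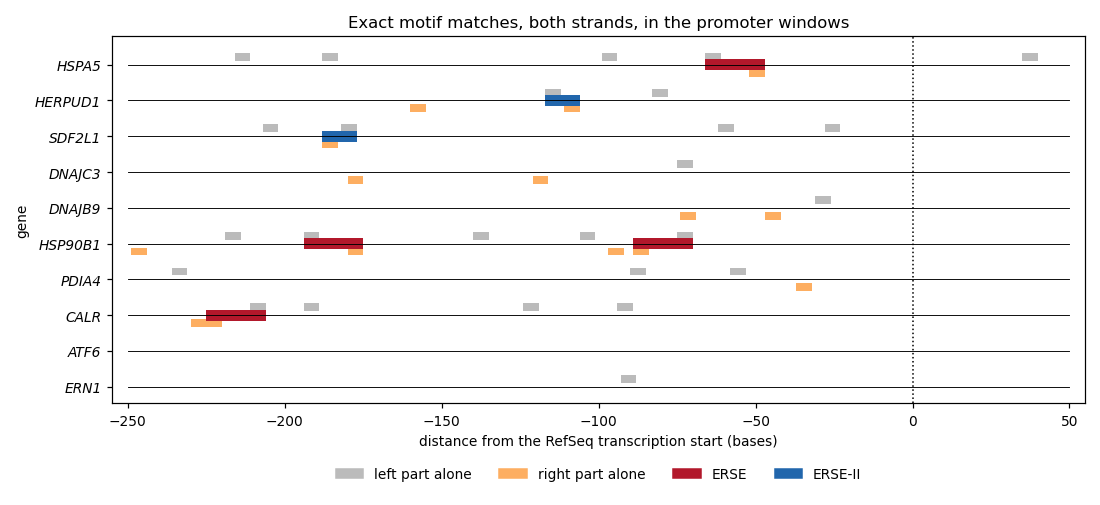
Exact motif matches in the 300-base promoter windows of the 10 genes, with the distance from the RefSeq transcription start in bases on the horizontal axis (first window only for PDIA4). Red boxes are ERSE and blue boxes ERSE-II; grey and orange boxes are its left part, CCAAT, and its right part, CCACG, wherever they occur on either strand. Complete elements are seen in HSPA5, HSP90B1, CALR, HERPUD1 and SDF2L1, and ATF6 has neither part.

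More of the 10 genes were higher than CTR at 12 and 72 h than at 24 and 48 h, but they did not share 1 course. Called higher at both 12 and 72 h were HSPA5, DNAJC3, SDF2L1, HERPUD1 and ERN1, whereas HSP90B1, PDIA4 and CALR were called higher at 12 h only and DNAJB9 and ATF6 were not at 12 h. At 12 h of EGF, 8 of the 10 were higher than CTR and none lower, with a median log2 fold change of 0.59 against -0.054 for all genes tested. Over all genes, 32.9% were called higher and 36.5% lower in this comparison. By 24 h, 5 were higher (29.2% of all genes) and 3 lower (29.6%), with a median of 0.29. At 48 h, 4 were higher (24.0% of all genes) and 3 lower (21.8%), and the median was 0.0050. At 72 h, 7 were higher (30.6% of all genes) and 1 lower (31.0%), with a median of 0.63. Beyond 1.5-fold, 5 genes were called higher at 12 h and 5 at 72 h, 1 was at 24 h and 2 were at 48 h, and none was called lower at any time. The share of all genes beyond this fold was not counted, so these counts have nothing to be read against. Because each library is a bulk of cells, fewer cells of a type and less RNA per cell cannot be told apart.

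The successive times were compared with the control libraries left aside. From 12 to 24 h, 7 of the 10 genes fell (25.9% of all genes were called lower) and 1, ATF6, rose (27.9%). Between 24 and 48 h, 4 fell (24.3% of all genes) and 1, CALR, rose (25.9%). This split rests on the scaling, since library size alone gave 5 higher and 2 lower and upper quartile scaling 3 and 3, and leaving out any 1 library of the step gave 3 lower, or 2 without EGF 24 h replicate 4. From 48 to 72 h all 10 rose and none fell, whereas 17.9% of all genes were called higher and 17.9% lower. With library size alone and with upper quartile scaling 8 of the 10 were called higher in this step, and with offsets per gene from the deposited normalized values 7, and none lower. The counts of all genes also moved under these settings, as given in the next paragraph. The median of the 10 was -0.48 log2 from 12 to 24 h, -0.044 from 24 to 48 h and 0.48 from 48 to 72 h. Against the mean of its neighbouring times, 24 and 72 h, the level at 48 h was lower in 7 of the 10 (21.8% of all genes) and higher in none (23.7%). All 10 genes together took 0.188% ± 0.00716 of the counts in CTR (SD, n = 4), without TMM and with mitochondrial counts in the total. This share was 0.245% ± 0.0124, 0.168% ± 0.00569, 0.187% ± 0.00862 and 0.265% ± 0.00882 at the 4 EGF times in order. Most of it comes from CALR, HSP90B1 and HSPA5 (685, 450 and 215 CPM in CTR), so it need not follow the median of the 10.

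Scaling bears on the splits of all genes. With library size alone and no TMM, the median of all genes moved from -0.054 to -0.34 at 12 h, and 3581 genes were called higher and 8275 lower in place of 5433 and 6032 (4317 and 7299 with upper quartile scaling). In the same order, library size alone gave 3666 and 6421 at 24 h in place of 4819 and 4898. It gave 6107 and 2796 from 12 to 24 h (main 4608 and 4271; upper quartile 5913 and 3035), 5948 and 2337 from 24 to 48 h (main 4272 and 4020), and 2132 and 4175 from 48 to 72 h (main 2951 and 2955). Upper quartile scaling gave 4841 and 3333 from 24 to 48 h, and 2609 and 3523 from 48 to 72 h. With the offsets per gene, 2041 were called higher and 1731 lower of 15353 genes from 48 to 72 h. Genes of the 10 whose call or sign depends on the scaling are named as they are described.

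**Figure D2:**
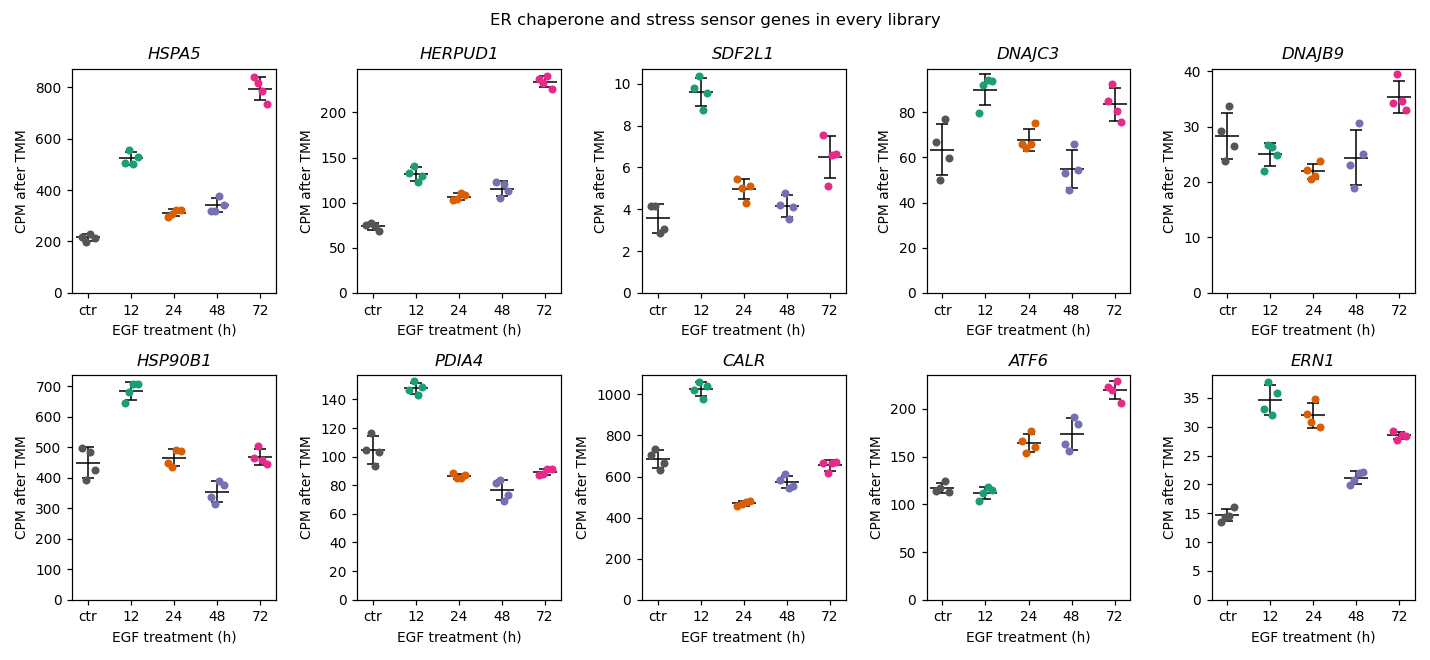
Level of each of the 10 genes in every library, in CPM after TMM scaling on a linear axis from 0, by hours of EGF (ctr, control). Points are the 4 libraries of a group; the bar and whiskers are the mean and SD. HSPA5, HERPUD1 and ATF6 are highest at 72 h, and SDF2L1, HSP90B1, PDIA4 and CALR at 12 h.

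HSPA5, which encodes BiP, was higher at all 4 times. It measured 218, 198, 230.3 and 214 CPM in CTR and 507, 557, 503 and 529 CPM at 12 h. Its level was 295, 305, 324 and 323 CPM at 24 h and 319.5, 320.1, 377 and 343 CPM at 48 h, and 840.2, 815, 785 and 736 CPM at 72 h. Each group of treated libraries lay wholly above CTR, and the 72 h libraries lay wholly above all others. HSPA5 was 2.43-fold higher at 12 h (log2 1.28 ± 0.066, adjusted p = 2.89e-14), 1.45-fold at 24 h (0.53 ± 0.065, adjusted p = 1.93e-07), 1.58-fold at 48 h (0.66 ± 0.065, adjusted p = 1.29e-08) and 3.69-fold at 72 h (1.88 ± 0.067, adjusted p = 3.59e-17). The order of its levels was 72 h, 12 h, 48 h, 24 h and CTR. Its 48 and 24 h levels did not differ past the threshold (log2 0.13 ± 0.065, adjusted p = 0.112), although library size alone, upper quartile scaling and a filter of 10 counts in every library called it higher at 48 h (0.28, 0.19 and 0.16). The step from 48 to 72 h was 1.22 ± 0.065 log2 (adjusted p = 2.87e-12), the largest between successive times among the 10 genes. HSPA5 is a gene of 8 exons at chromosome 9, 125234853 to 125241330, on the minus strand (GENCODE 29, GRCh38).

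HERPUD1, a membrane protein of the complex that moves misfolded chains out of the ER for degradation, had its group means in the same order as HSPA5. Its CTR libraries held 75.5, 77.2, 73.8 and 68.7 CPM, and the 12 h libraries 133, 141, 122 and 129.7 CPM. Values of 103, 104, 111 and 109 CPM at 24 h and 123, 105, 121 and 113 CPM at 48 h were followed by 237, 233, 240.1 and 226 CPM at 72 h. No treated library was as low as any CTR library, and the 72 h libraries stood apart above the rest. Against CTR the log2 fold changes were 0.83 ± 0.063 at 12 h (adjusted p = 3.49e-11), 0.53 ± 0.063 at 24 h (adjusted p = 1.28e-07), 0.65 ± 0.063 at 48 h (adjusted p = 1.02e-08) and 1.66 ± 0.064 at 72 h (adjusted p = 1.54e-16). It fell by 0.30 on the log2 scale from 12 to 24 h (adjusted p = 0.000298); with library size alone this was -0.16 and not called. It rose by 1.02 ± 0.062 from 48 to 72 h (adjusted p = 2.11e-11). The step from 24 to 48 h was 0.12 ± 0.062 (adjusted p = 0.13) and was called higher (0.16) without EGF 48 h replicate 2, the library with the highest mitochondrial share (16.9%). Library size alone, upper quartile scaling and the filter of 10 counts also called it higher (0.27, 0.18 and 0.15).

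SDF2L1, a soluble partner of BiP and the ER J-proteins that limits aggregation, was the least abundant of the 10 in CPM. CTR libraries gave 4.17, 4.16, 2.86 and 3.08 CPM, from 64 to 99 counts each. The 12 h libraries gave 9.80, 10.4, 8.73 and 9.56 CPM and the 24 h libraries 5.44, 5.03, 4.30 and 5.12 CPM. At 48 h it was 4.21, 4.79, 3.53 and 4.12 CPM, and at 72 h 7.55, 5.12, 6.59 and 6.64 CPM. All treated libraries at 12, 24 and 72 h lay above CTR, while those at 48 h overlapped it. SDF2L1 had the largest rise of the 10 at 12 h, 2.69-fold (log2 1.43 ± 0.14, adjusted p = 3.03e-09). At 24 h the difference was 0.48 ± 0.15 (adjusted p = 0.00641), not called with library size alone (0.34) or with the offsets per gene (0.39). At 48 h it was 0.22 ± 0.15 (adjusted p = 0.229) and at 72 h 0.87 ± 0.14 (adjusted p = 1.3e-05). Its level at 72 h was below that at 12 h (log2 -0.56 ± 0.13, adjusted p = 0.000738), where HSPA5 and HERPUD1 were above it (log2 0.60 ± 0.065 and 0.83 ± 0.062, adjusted p = 2.2e-08 and 5.43e-11).

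DNAJC3, the J-protein P58IPK, which hands unfolded chains to BiP, rose at both ends of the course. It measured 66.9, 50.1, 76.8 and 59.7 CPM in CTR, 79.8, 92.1, 94.1 and 93.8 CPM at 12 h and 65.9, 63.96, 65.97 and 75.02 CPM at 24 h. At 48 h it measured 53.2, 45.5, 65.8 and 54.2 CPM, and at 72 h 85.02, 92.6, 80.6 and 75.6 CPM. The 12 h libraries all lay above CTR, 3 of the 4 at 72 h did, and the 24 and 48 h libraries overlapped CTR. The log2 fold change was 0.50 ± 0.11 at 12 h (adjusted p = 0.000289; 0.22 and not called with library size alone) and 0.40 ± 0.11 at 72 h (adjusted p = 0.00334). At 24 h it was 0.096 ± 0.11 (adjusted p = 0.474), slightly below 0 (-0.047) with library size alone and (-0.0013) without CTR replicate 2. At 48 h it was -0.21 ± 0.11 (adjusted p = 0.124) and was called lower without CTR replicate 2 (-0.31) or EGF 48 h replicate 3 (-0.31). It fell from 12 to 24 h (log2 -0.41 ± 0.11, adjusted p = 0.0033), which was -0.23 and no longer called with the mitochondrial share as a covariate. The fall from 24 to 48 h (log2 -0.31 ± 0.11, adjusted p = 0.0247) was not called without EGF 24 h replicate 4 (-0.26), EGF 48 h replicate 1 (-0.30) or EGF 48 h replicate 2 (-0.23), nor with library size alone (-0.15). It rose from 48 to 72 h (log2 0.61 ± 0.11, adjusted p = 0.000146).

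DNAJB9, the J-protein ERdj4, a partner of BiP that also acts in keeping IRE1 inactive, was with ATF6 1 of the 2 genes that were not called higher at 12 h. Its values were 29.2, 23.8, 33.7 and 26.5 CPM in CTR, 22.02, 26.7, 26.3 and 24.9 CPM at 12 h and 22.1, 20.6, 21.03 and 23.8 CPM at 24 h. They were 23.00, 18.8, 30.7 and 25.1 CPM at 48 h and 34.2, 39.4, 34.6 and 33.02 CPM at 72 h. The groups overlapped except that every 72 h library was above every 12, 24 and 48 h library. At 12 h the log2 difference from CTR was -0.18 ± 0.12 (adjusted p = 0.177), and it was called lower with library size alone (-0.46), upper quartile scaling (-0.34) and the mitochondrial share as a covariate (-0.28). DNAJB9 was lower at 24 h (-0.37 ± 0.12, adjusted p = 0.0102), a call lost without CTR replicate 3 (-0.27). At 48 h the difference was -0.21 ± 0.12 (adjusted p = 0.149), called lower without CTR replicate 2 (-0.29) or EGF 48 h replicate 3 (-0.34). At 72 h it was higher (0.32 ± 0.12, adjusted p = 0.0204), but not without CTR replicate 2 (0.24), CTR replicate 4 (0.29) or EGF 72 h replicate 2 (0.27), nor with library size alone (0.24) or the offsets per gene (0.22). The step from 12 to 24 h was -0.19 ± 0.12 (adjusted p = 0.19), and it was called lower with the offsets per gene (-0.35). From 24 to 48 h the step was 0.16 ± 0.12 (adjusted p = 0.28), called higher with library size alone (0.32) and the offsets per gene (0.44). The rise from 48 to 72 h was 0.53 ± 0.12 (adjusted p = 0.00103), and 0.25 and not called with the offsets per gene.

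DNAJC3, DNAJB9 and HSP90B1 moved with the mitochondrial share within groups. The fitted slopes were -0.061 ± 0.016 log2 per percentage point for DNAJC3 (adjusted p = 0.0289), -0.068 ± 0.016 for DNAJB9 (adjusted p = 0.0246) and -0.041 ± 0.011 for HSP90B1 (adjusted p = 0.0308). The same fit called 1155 of all genes. In each of the 5 groups the library with the highest mitochondrial share was the lowest in all 3 genes. The library with the lowest share was not always the highest: at 72 h replicate 3 (12.3% mitochondrial counts) held 80.6 CPM of DNAJC3, below replicate 1 (15.9%) with 85.02 CPM and replicate 2 (15.6%) with 92.6 CPM, and replicate 2 was the highest in all 3 genes. The slopes of the other 7 genes, -0.030 to 0.025, were not called. With this share in the model, HSP90B1 was called higher at 72 h (0.24) and the other calls at 72 h kept their side of the threshold.

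**Figure D3:**
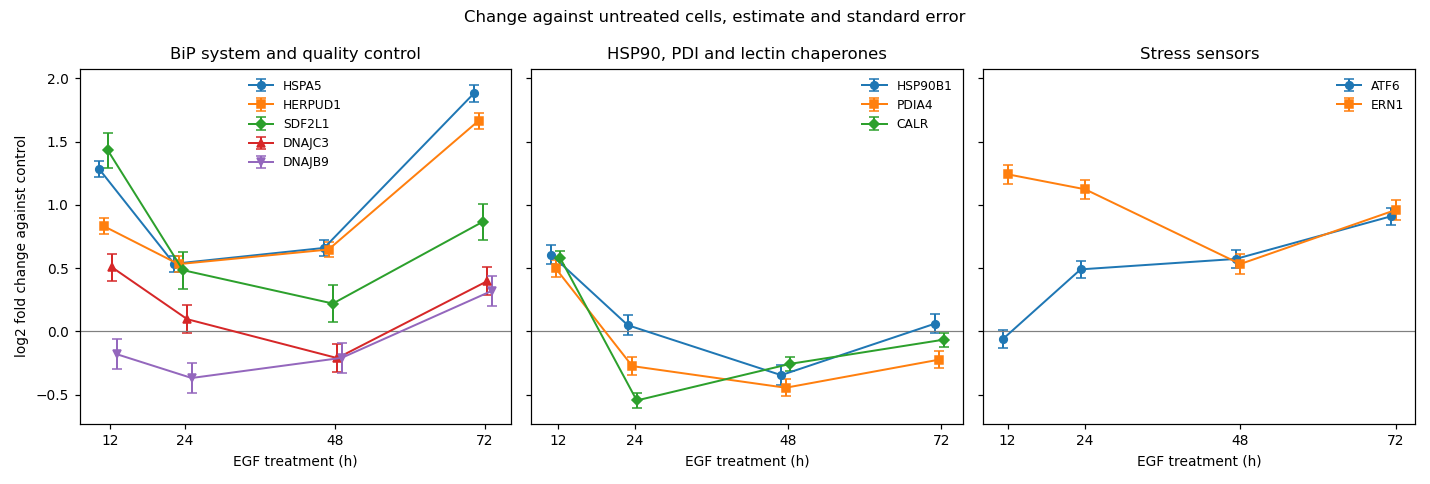
Log2 fold change against control for each gene by hours of EGF; points are edgeR estimates and whiskers their standard errors, with small sideways shifts so that they can be told apart. HSPA5 and HERPUD1 end at 1.88 and 1.66, CALR goes from 0.58 at 12 h to -0.55 at 24 h, and the sensors ATF6 and ERN1 meet at 0.91 and 0.96 at 72 h.

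The chaperones HSP90B1, PDIA4 and CALR rose at 12 h and were called higher at no later time. HSP90B1, or GRP94, the HSP90 protein of the ER, held 496, 392, 486 and 426 CPM in CTR and 644, 682, 706 and 709 CPM at 12 h. It held 447, 435, 491 and 489 CPM at 24 h, 337, 314, 389 and 376 CPM at 48 h and 466, 506, 459 and 446 CPM at 72 h. The 12 h libraries were above all others and the 48 h libraries below all others, while those at 24 and 72 h fell among the CTR libraries or just above them. The log2 fold change against CTR was 0.61 ± 0.077 at 12 h (adjusted p = 2.18e-07) and -0.35 ± 0.077 at 48 h (adjusted p = 0.000727). At 24 h it was 0.049 ± 0.077 (adjusted p = 0.608) and at 72 h 0.060 ± 0.077 (adjusted p = 0.516), and both turned negative with library size alone (-0.095 and -0.016) and without CTR replicate 2 (-0.011 and -0.0019). Its levels at 24 and 72 h were side by side (log2 0.011 ± 0.077, adjusted p = 0.924). HSP90B1 fell from 24 to 48 h (log2 -0.39 ± 0.077, adjusted p = 0.000173) and rose again to 72 h (log2 0.41 ± 0.077, adjusted p = 0.000219).

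PDIA4, or ERp72, a protein disulfide isomerase, ended the course below its starting level. CTR libraries had 105, 117, 93.3 and 103 CPM, and 12 h libraries 146, 153, 143 and 149 CPM. Later libraries had 88.2, 84.8, 85.1 and 87.3 CPM at 24 h, 81.3, 83.5, 69.1 and 73.1 CPM at 48 h and 87.4, 88.1, 91.03 and 91.4 CPM at 72 h. The 12 h libraries lay above CTR and all later libraries below it, with no overlap. The log2 fold changes were 0.50 ± 0.068 at 12 h (adjusted p = 5.98e-07), -0.27 ± 0.068 at 24 h (adjusted p = 0.00133), -0.45 ± 0.068 at 48 h (adjusted p = 9.88e-06) and -0.22 ± 0.068 at 72 h (adjusted p = 0.00652). The steps after 24 h were small. The fall to 48 h (log2 -0.17 ± 0.068, adjusted p = 0.0409) was not called when any of EGF 24 h replicates 1, 2, 3 and 4 or EGF 48 h replicates 3 and 4 was left out (-0.12 to -0.18), nor under 5 of the other settings (-0.018 to -0.17). The rise from 48 to 72 h (log2 0.22 ± 0.068, adjusted p = 0.0137) was not called without EGF 48 h replicate 3 (0.17), with library size alone (0.14), upper quartile scaling (0.18) or the offsets per gene (0.21).

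CALR, the lectin chaperone calreticulin, which binds sugars on folding glycoproteins, made the largest fall of the 10 between 12 and 24 h. It measured 705, 737, 633 and 667 CPM in CTR and 1023, 1062, 978 and 1039 CPM at 12 h. It then measured 456, 466, 474 and 481 CPM at 24 h, 583, 612, 544 and 555 CPM at 48 h and 665, 617, 664 and 672 CPM at 72 h. The 12 h libraries were above and the 24 and 48 h libraries below every CTR library, and those at 72 h overlapped CTR. Against CTR the log2 fold change was 0.58 ± 0.056 at 12 h (adjusted p = 2.69e-09), -0.55 ± 0.056 at 24 h (adjusted p = 1.4e-08), -0.26 ± 0.056 at 48 h (adjusted p = 0.000633) and -0.066 ± 0.056 at 72 h (adjusted p = 0.32; -0.14 and called lower with library size alone). It fell to 0.458 times its 12 h level at 24 h (log2 -1.13 ± 0.057, adjusted p = 5.52e-13). CALR then rose from 24 to 48 h (log2 0.29 ± 0.056, adjusted p = 0.000173), and it rose again to 72 h (log2 0.19 ± 0.056, adjusted p = 0.0102), a step not called with library size alone (0.10), upper quartile scaling (0.15) or no filter beyond 1 count (0.19). A gene on the other strand overlaps 9.95% of CALR's exonic sequence, and the sources used here do not say whether counting used strand.

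The sensors did not move together. ATF6, the sensor that is itself cut into a transcription factor, measured 114, 117, 124 and 113 CPM in CTR and 104, 112, 119 and 115 CPM at 12 h. It measured 167, 154, 176 and 160.1 CPM at 24 h, 164, 155, 192 and 184 CPM at 48 h and 223, 219.9, 229 and 207 CPM at 72 h. CTR and 12 h libraries overlapped, and all later libraries were above both. At 12 h the log2 fold change was -0.060 ± 0.070 (adjusted p = 0.454); it was called lower with library size alone (-0.34) and upper quartile scaling (-0.22) and higher with the offsets per gene (0.26, adjusted p = 0.0138), so its direction at 12 h rests on the scaling. Later the values were 0.49 ± 0.069 at 24 h (adjusted p = 1.89e-06), 0.57 ± 0.069 at 48 h (adjusted p = 3.52e-07) and 0.91 ± 0.070 at 72 h (adjusted p = 6.08e-11). The rise from 12 to 24 h was 0.55 ± 0.070 (adjusted p = 6.47e-07), but 0.053 and not called with the offsets per gene. The levels at 24 and 48 h did not differ past the threshold (log2 0.083 ± 0.069, adjusted p = 0.337; 0.24 and called with library size alone), and the 72 h level was above that at 48 h (log2 0.34 ± 0.069, adjusted p = 0.000489).

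ERN1, which encodes the sensor IRE1, was above CTR in every treated library. Its values were 13.6, 14.4, 14.6 and 16.1 CPM in CTR and 33.1, 37.7, 32.04 and 35.9 CPM at 12 h. They were 32.3, 30.8, 34.9 and 29.97 CPM at 24 h, 19.9, 20.7, 21.96 and 22.2 CPM at 48 h and 29.3, 27.8, 28.6 and 28.4 CPM at 72 h. The 12 and 24 h libraries overlapped each other, and the 48 h libraries lay below all other treated ones. Against CTR the log2 fold change was 1.24 ± 0.075 at 12 h (adjusted p = 6.11e-13), 1.12 ± 0.075 at 24 h (adjusted p = 6.61e-12), 0.53 ± 0.076 at 48 h (adjusted p = 3.75e-06) and 0.96 ± 0.075 at 72 h (adjusted p = 9.91e-11). The order of its levels was 12 h, 24 h, 72 h, 48 h and CTR, and neither 12 against 24 h (adjusted p = 0.171) nor 24 against 72 h (adjusted p = 0.0781) differed past the threshold, although every 72 h library was below every 24 h library. ERN1 fell from 24 to 48 h (log2 -0.59 ± 0.074, adjusted p = 6.13e-07) and rose to 72 h (log2 0.43 ± 0.074, adjusted p = 7.9e-05), 2 steps that were -0.40 and 0.21 and not called with the offsets per gene. Its step from 12 to 24 h, -0.12 ± 0.072, turned positive with library size alone (0.022) and with those offsets (0.18).

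**Figure D4:**
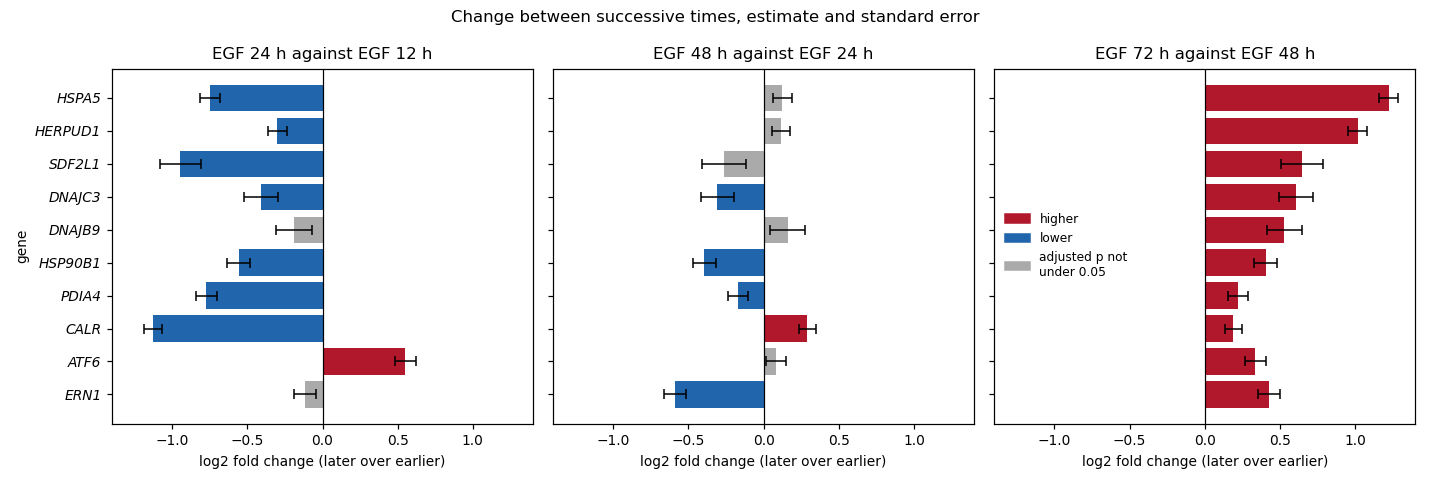
Log2 fold change of each gene between successive times, later over earlier; bars start at 0 and whiskers are standard errors, and red, blue and grey stand for called higher, called lower and adjusted p not under 0.05. From 12 to 24 h 7 genes fall and ATF6 rises, from 24 to 48 h 4 fall and CALR rises, and from 48 to 72 h all 10 rise, with TMM scaling; library size alone gives 5 higher and 2 lower from 24 to 48 h and 8 higher from 48 to 72 h.

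Set beside each other by their 4 log2 fold changes against CTR, the nearest pairs among the 10 were PDIA4 with CALR (root mean square difference 0.188 log2), HSP90B1 with DNAJC3 (0.190), HSP90B1 with PDIA4 (0.227) and HSPA5 with HERPUD1 (0.250). These differences use the same CTR libraries for every gene and are given as a description. The genes with a complete ERSE, HSPA5, HSP90B1 and CALR, had log2 fold changes at 72 h of 1.88, 0.060 and -0.066. Those with ERSE-II, HERPUD1 and SDF2L1, had 1.66 and 0.87. At 12 h all 5 were called higher, from 0.58 to 1.43, as were 3 of the 5 genes with neither element (DNAJC3, PDIA4 and ERN1).

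Per kilobase of the annotated principal transcript, the order in CTR was CALR (360.1 ± 23.8 CPM per kb, SD, n = 4), HSP90B1 (157 ± 17.3), HSPA5 (55.1 ± 3.36), PDIA4 (35.98 ± 3.32), HERPUD1 (25.1 ± 1.24), ATF6 (15.6 ± 0.701), DNAJC3 (11.3 ± 2.02), DNAJB9 (10.4 ± 1.55), SDF2L1 (4.12 ± 0.806) and ERN1 (1.86 ± 0.137). DNAJC3 and DNAJB9 overlapped within their SD. CALR led and ERN1 came last in every group. At 72 h HSPA5, at 203 ± 11.5 CPM per kb, had passed HSP90B1, at 164 ± 9.01. From 24 h on HERPUD1 was above PDIA4 on this scale, with 79.4 ± 2.08 against 30.8 ± 0.699 at 72 h.

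The 10 genes lie apart in the genome (GENCODE 29, GRCh38). ATF6 spans 161766294 to 161964070 on chromosome 1, DNAJB9 108569568 to 108574850 on chromosome 7 and DNAJC3 95677139 to 95794989 on chromosome 13. PDIA4 shares chromosome 7 with DNAJB9 but is far from it, at 149003062 to 149028641, and ERN1 lies at 64039142 to 64130819 on chromosome 17. HERPUD1 is at 56932048 to 56944863 on chromosome 16, CALR at 12938578 to 12944489 on chromosome 19, SDF2L1 at 21642261 to 21644298 on chromosome 22 and HSP90B1 at 103930107 to 103953645 on chromosome 12. Genes of the other strand overlap 6.45% of the exonic sequence of DNAJB9 and 4.81% of that of HSP90B1, beside the 9.95% of CALR, and none of that of the other 7; MIR3652 overlaps a further 2.79% of HSP90B1 on its own strand.

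The wider pathway was read through 5 lists with 69 further genes, of which 68 were tested and ERN2 was not. These genes were read in the main fit only, so how their calls depend on the scaling was not tested. Of the 68, 33 were higher and 13 lower at 12 h (median 0.19 log2), 21 and 23 at 24 h (-0.044), 15 and 21 at 48 h (-0.081) and 28 and 22 at 72 h (0.12). The shares of all genes called higher and lower were 32.9% and 36.5% at 12 h and 29.2% and 29.6% at 24 h. They were 24.0% and 21.8% at 48 h and 30.6% and 31.0% at 72 h. The 21 higher at 24 h, the 15 higher at 48 h and the 22 lower at 72 h were among the counts near these shares. The shorter lists below are read against the same shares, and several of their counts also come near them. Between successive times, 7 rose and 43 fell from 12 to 24 h, 16 rose and 17 fell from 24 to 48 h, and 28 rose and 4 fell from 48 to 72 h. Of all genes, 27.9% rose and 25.9% fell in the first step, 25.9% and 24.3% in the second, which the 16 and 17 come near, and 17.9% and 17.9% in the last. The 10 chaperones and sensors had the higher median at 12, 24, 48 and 72 h.

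Among 10 co-chaperones and folding factors, 5 were higher and 1 lower at 12 h (median 0.25), 3 and 3 at 24 h (-0.089), 1 and 1 at 48 h (-0.049), and 5 and 2 at 72 h (0.20). The 3 and 3 at 24 h come near the shares of all genes, 29.2% and 29.6%. MANF, a secreted partner of BiP, went from 44.8 ± 3.75 CPM in CTR to 107 ± 2.16 CPM at 12 h, and its log2 fold changes were 1.26 ± 0.071 at 12 h and 0.80 ± 0.071 at 72 h. HYOU1, the exchange factor GRP170 that frees nucleotide from BiP, gave 1.06 ± 0.069 at 12 h, 0.30 ± 0.068 at 24 h and 0.45 ± 0.068 at 72 h, all called. DNAJB11, the J-protein ERdj3, was called at 12 h (0.86 ± 0.080) and 72 h (0.22 ± 0.081). Opposite-strand genes cover 15.3% of its exon bases and same-strand genes 7.87%. MANF, HYOU1 and DNAJB11 all fell from 12 to 24 h and rose from 48 to 72 h. They were named for the size of their change at 12 h, which favours a later fall. Of the 10 in this list, 7 fell and 0 rose from 12 to 24 h (25.9% and 27.9% of all genes). From 48 to 72 h, 6 rose and 0 fell (17.9% and 17.9%).

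Of 12 genes for disulfide bond formation, 8 were higher and 1 lower at 12 h (median 0.29), 3 and 5 at 24 h (-0.13), 2 and 5 at 48 h (-0.077), and 4 and 5 at 72 h (0.0017). The 3 higher at 24 h and the 4 higher at 72 h come near the shares of all genes, 29.2% and 30.6%. ERO1A, the oxidase that recharges disulfide isomerases, was higher at every time, from 0.54 ± 0.096 at 48 h to 1.14 ± 0.096 at 12 h. ERO1B, its paralog, was called at 72 h only (0.96 ± 0.12), with -0.018, -0.097 and 0.14 at the earlier times. PDIA5, an isomerase, was higher at 12 h (0.75 ± 0.074) and 24 h (0.25 ± 0.074). Same-strand genes cover 14.3% of the exon bases of PDIA5.

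Of 15 genes of ER-associated degradation, 8 were higher and 4 lower at 12 h (median 0.25), 8 and 2 at 24 h (0.24), 6 and 1 at 48 h (0.11), and 8 and 1 at 72 h (0.34). Over all genes, 32.9%, 29.2%, 24.0% and 30.6% were called higher at these times, and 36.5%, 29.6%, 21.8% and 31.0% lower. SELENOS, a membrane protein that recruits the p97 ATPase, rose at 12 h (1.13 ± 0.080) and gave -0.17 at 48 h, which was not called. EDEM1, which trims mannose from glycoproteins marked for disposal, was higher at every time, from 0.60 ± 0.071 at 48 h to 1.04 ± 0.072 at 72 h. ERLEC1, a lectin of the same pathway, was lower at 12 h (-0.26 ± 0.10) and higher from 24 h on, up to 1.10 ± 0.10 at 72 h.

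Among 16 tested genes of the sensors, their transcription factors and the PERK arm, 7 were higher and 5 lower at 12 h (median 0.11), 5 and 5 at 24 h (0.037), 5 and 5 at 48 h (-0.012), and 8 and 5 at 72 h (0.19). The 5 and 5 at 24 h come near the shares of all genes, 29.2% and 29.6%. So do the 5 lower at 12 h (36.5% of all genes) and at 72 h (31.0%). At 48 h the shares were 24.0% and 21.8%. DDIT3, the transcription factor CHOP, went from 3.67 ± 0.512 CPM in CTR to 4.34 ± 0.558 CPM at 12 h and 18.1 ± 1.86 CPM at 72 h. Its log2 fold change was 0.24 ± 0.13 at 12 h, not called, and 1.35 ± 0.12, 1.67 ± 0.12 and 2.30 ± 0.12 at 24, 48 and 72 h, all called. Opposite-strand genes cover 31.6% of its exon bases and same-strand genes 8.03%. PPP1R15A, or GADD34, which directs the removal of phosphate from eIF2alpha, was higher at every time, with 2.26 ± 0.11 at 12 h, 0.74 ± 0.12 at 24 h and 2.17 ± 0.11 at 72 h. CHAC1, an enzyme that degrades glutathione, was also higher throughout, from 0.88 ± 0.16 at 48 h to 1.89 ± 0.15 at 12 h. XBP1, chosen here after its values were seen, was lower at every time, by -0.90 ± 0.051, -1.21 ± 0.051, -1.04 ± 0.051 and -1.14 ± 0.051 log2 at 12, 24, 48 and 72 h. ERN1, whose product splices the XBP1 mRNA, was higher at these times, and a link between the 2 was not tested.

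Of 15 genes for translocation into the ER, 5 were higher and 2 lower at 12 h (median 0.11), 2 and 8 at 24 h (-0.25), 1 and 9 at 48 h (-0.24), and 3 and 9 at 72 h (-0.27). The 5 higher at 12 h come near the share of all genes, 32.9%. The shares of all genes called lower at 24, 48 and 72 h were 29.6%, 21.8% and 31.0%. SRPRA, a subunit of the receptor for the signal recognition particle, was higher at every time, from 0.42 ± 0.071 at 48 h to 0.97 ± 0.072 at 72 h. SSR3, a subunit of the translocon-associated TRAP complex, gave 0.95 ± 0.071 at 12 h and -0.12 at 48 h, which was not called. SPCS1, of the signal peptidase complex, was lower at every time, most at 12 h (-0.75 ± 0.080), though opposite-strand genes cover 58.1% of its exon bases.

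**Figure D5:**
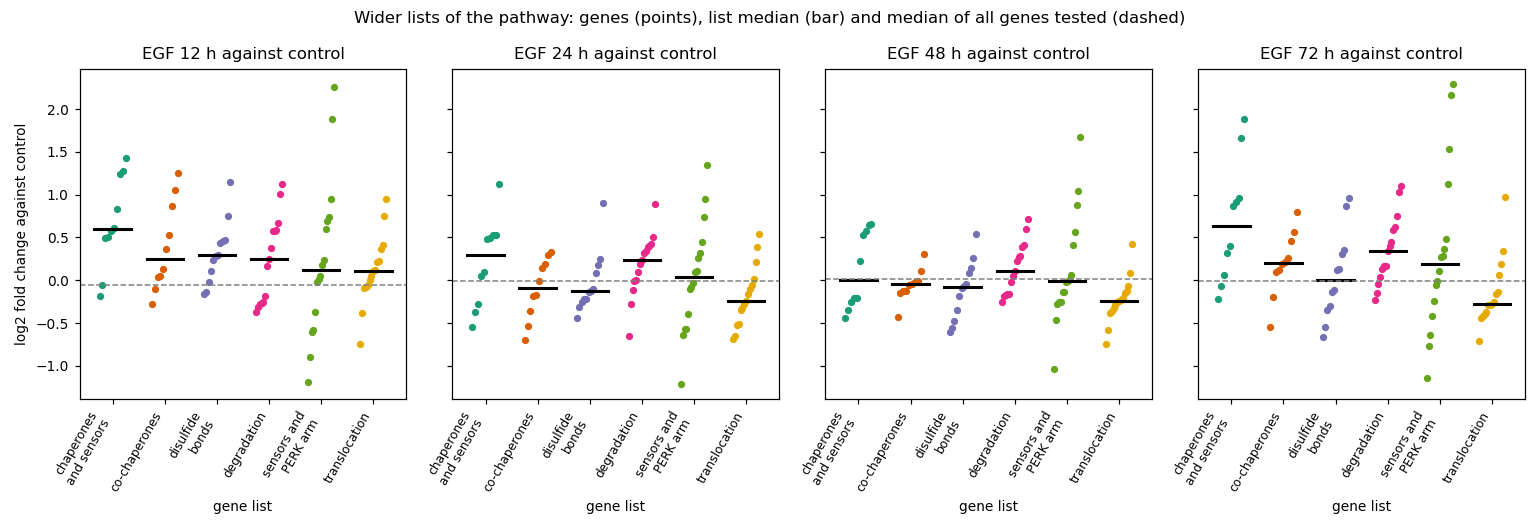
Log2 fold change against control at each time for the 10 chaperones and sensors and for 5 wider lists of the pathway; points are genes, black bars the list medians and the dashed line the median of all genes tested. The 10 genes have a median of 0.59 at 12 h and 0.63 at 72 h, and the translocation list one of -0.27 at 72 h.

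By root mean square difference over the 4 log2 fold changes, among 9033 genes with a mean of at least 10 CPM, the 5 genes nearest to HSPA5 were PPIF (0.143), GLRX (0.212), DAPP1 (0.221), GADD45A (0.242) and TRMT1 (0.270). PPIF had 1.15, 0.35, 0.61 and 1.72 at 12, 24, 48 and 72 h, beside 1.28, 0.53, 0.66 and 1.88 for HSPA5. Nearest to ERN1 were GRB7 (0.0452), FGD6 (0.0488), S100A11 (0.0624), SLX1B-SULT1A4 (0.0634) and HERC3 (0.104), of which the first had 1.24, 1.05, 0.56 and 0.91. The likeness rests on 4 values that share the CTR libraries.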

How the data were processed

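RNA was sequenced from 20 libraries of MDA-MB-468 cells, 4 in each of 5 groups. The deposited counts are whole numbers per gene and library, with hg38 and DESeq2 named in the submitters' processing notes per the labels; the aligner, whether reads were counted or estimated, the use of strand and the annotation release are not given in the sources used here. The 10 deposited tables hold the same counts. Their normalized values, whole-number scores that the authors made with DESeq2, have a ratio to the counts that differs from gene to gene, and served only as offsets in 1 alternative. The authors' fold changes and p-values were not used.

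Counts were filtered with filterByExpr and scaled with TMM, and 1 quasi-likelihood model with a mean per group was fitted in edgeR 4.0.16 (R 4.3.3; robust fits, prior count 0.125), with Benjamini-Hochberg adjustment over 16522 genes. The standard error is the log2 fold change divided by the square root of F. Other fits changed the scaling, the filter, the samples, the replicate block or the tool (DESeq2 1.42.0, which also used its own size factors); the filter was applied anew where libraries were left out (14672 to 16863 genes tested), and the offsets allowed 15353 genes. The code was tested on simulated data. The 10 genes, the lists and the tests were chosen with earlier results of these data known. Named list genes were the 3 with the largest change against CTR among those called, with a mean of at least 1 CPM. Genes were placed by GENCODE 29, which held 58036 of the 60271 identifiers and all 10 genes; promoters came from a RefSeq table (GRCh38.p14). No 2 replicates were the same library: the variance between replicates was 3.78 to 65.4 times the sampling noise over 30 pairs. The labels call the replicates biological without saying how the cultures were separated, so p-values measure the spread between these libraries.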

Additional observations from a re-analysis of the deposited data

Results flagged for a closer look

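Single libraries stood apart from their group by Dixon's test in 2 of 50 gene and group combinations, where chance flags about 1 in 20. DNAJC3 in EGF 12 h replicate 1 (79.8 CPM) was below the other 3 libraries, and CALR in EGF 72 h replicate 2 (617 CPM) was below its other 3.

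Levels differed between successive times of EGF, by a test of the difference itself, in 23 of the 30 combinations of gene and step. Of all genes, 27.9% were called higher and 25.9% lower from 12 to 24 h. These shares were 25.9% and 24.3% from 24 to 48 h, and 17.9% and 17.9% from 48 to 72 h. The 23 differences follow. From 12 to 24 h the log2 differences were -0.75 for HSPA5, -0.56 for HSP90B1, -0.41 for DNAJC3, -0.95 for SDF2L1, -0.30 for HERPUD1, -0.77 for PDIA4, -1.13 for CALR and 0.55 for ATF6. From 24 to 48 h they were -0.39 for HSP90B1, -0.31 for DNAJC3, -0.17 for PDIA4, 0.29 for CALR and -0.59 for ERN1. From 48 to 72 h they were 1.22 for HSPA5, 0.41 for HSP90B1, 0.53 for DNAJB9, 0.61 for DNAJC3, 0.65 for SDF2L1, 1.02 for HERPUD1, 0.22 for PDIA4, 0.19 for CALR, 0.34 for ATF6 and 0.43 for ERN1.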

How the results depend on the processing

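With DESeq2 size factors, the DESeq2 Wald test and the replicate number as a block, all 70 log2 fold changes of the 10 genes (7 comparisons) kept their direction and their side of the threshold. The replicate block gave 8 genes higher and 0 lower at 12 h, 5 and 3 at 24 h, 4 and 3 at 48 h, and 7 and 1 at 72 h; from 12 to 24 h 1 and 7, from 24 to 48 h 1 and 4, and from 48 to 72 h 10 and 0. The correlation of deviations over 40 same-numbered pairs of libraries ran from -0.60 to 0.80 (median 0.033, 18 over 0.1, 12 best with their own number). In none of the 7 comparisons were all 4 pairs over 0.1, so the numbers were not taken to pair the libraries. All 4 were between 12 and 48 h (0.22 to 0.44), for which no test is given, and CTR with 48 h reached 0.71 and 0.80 for numbers 2 and 3.

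Of 70, those that kept both numbered 51 with library size alone, 63 with upper quartile scaling, 59 with offsets per gene, 68 with no filter, 67 with 10 counts in every library, 69 with only the libraries compared, and 66 with the mitochondrial share as a covariate, chosen after seeing the data. Library size alone called 2 lower at 12 h and 2 lower at 72 h, and 5 higher and 2 lower from 24 to 48 h. Upper quartile scaling called 2 lower at 12 h and 3 higher from 24 to 48 h. The covariate called 1 lower at 12 h, the offsets 0 higher from 12 to 24 h and 2 higher from 24 to 48 h, and the filter of 10 counts 3 higher from 24 to 48 h. Beyond 1.5-fold, 5 were higher at 12 h, 1 higher and 0 lower at 24 h, and 2 higher and 0 lower at 48 h. At 72 h 0 were lower. From 12 to 24 h 0 were higher and 4 lower, and from 24 to 48 h 0 were higher and 1 lower. From 48 to 72 h 4 were higher. The share of all genes beyond this fold was not counted.

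The sign turned for ATF6 at 12 h with the offsets (0.26), HSP90B1 at 24 h (-0.095) and 72 h (-0.016) and DNAJC3 at 24 h (-0.047) with library size alone, DNAJB9 from 12 to 24 h with the covariate (0.017), and ERN1 from 12 to 24 h with library size alone (0.022) and the offsets (0.18); of these only ATF6 was called. The cause was not tested.

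Leaving out each library in turn kept 538 of 560 values. The counts ranged from 3 to 5 lower at 48 h (5 without CTR replicate 2 or EGF 48 h replicate 3), from 1 to 2 higher from 24 to 48 h (2 without EGF 48 h replicate 2) and from 2 to 3 lower in that step (2 without EGF 24 h replicate 4). The values of HSP90B1 ranged from -0.011 to 0.10 at 24 h and from -0.0019 to 0.11 at 72 h, and that of DNAJC3 from -0.0013 to 0.20 at 24 h, each lowest without CTR replicate 2.

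Over all genes, counts that moved by more than 1.5 times were those called higher at 12 h (5433, and 3581 with library size alone), lower from 12 to 24 h (4271 and 2796), lower from 24 to 48 h (4020 and 2337), and lower from 48 to 72 h (2955, and 1731 with the offsets). Depth limits SDF2L1 most, with 64 to 200 counts in a library.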
